A study of Mus musculus with 4 samples.

Results

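The genes described here encode the laminin chains of the epidermal basement membrane, the collagen of the anchoring fibrils, and the β1 integrins with which basal keratinocytes hold on to that membrane. The members are Lama3, Lamb3, Lama5, Lamb1, Lamc1, Col7a1, Itga3, Itgb1 and Itga2, taken by gene symbol from a table of RNA sequencing values in epidermal keratinocytes of newborn mice. All 9 members were found among 45803 gene symbols, and all 9 were among the 13817 genes tested. They were listed with 47 of 110295 transcripts, of which 16 were at 0 in every library and 10 were tested.

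The study compared conditional knockout animals (cKO) with control animals at postnatal day 0, with 2 libraries in each group. The cKO animals carried the K14Cre transgene, in which the keratin 14 promoter drives Cre recombinase in basal keratinocytes and their descendants, and 2 floxed alleles of Mettl14. The control animals carried the same K14Cre with 1 floxed allele and 1 intact allele, so Cre is present in both groups. METTL14, the product of the floxed gene, works with METTL3 to place the mark N6-methyladenosine (m6A) on mRNA. The labels number the libraries of each group 1 and 2 and name no separate animals, so that the spread behind each p-value is that between libraries and may be a technical one.

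Laminins are trimers of an α, a β and a γ chain in the basement membrane under the epidermis. The laminin that holds the α3 and β3 chains (genes Lama3 and Lamb3) is made mostly by basal keratinocytes and ties hemidesmosomes to the dermis, while the trimers of α5 with β1 and γ1 (Lama5, Lamb1 and Lamc1) occur in most epithelial basement membranes and around hair follicles. Collagen VII forms the anchoring fibrils that run from the membrane into the dermis. In basal cells the integrin β1 chain pairs with α3 to bind laminin and with α2 to bind collagen. Loss of Lama3, Lamb3, Col7a1 or Itga3 function causes skin fragility or blistering in humans.

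Values are FPKM, a measure of fragments scaled to transcript length and library depth, summed over the transcripts of a gene, so that levels can be compared between genes. Differences are cKO minus control on the scale of log2(FPKM + 1), which understates the change of low genes. They were tested with limma over the 13817 genes that reached 1 FPKM in 2 or more of the 4 libraries. The depth implied by the smallest values was 16885207 and 25685790 reads or fragments in cKO libraries 1 and 2 and 17382047 and 23393025 in control libraries 1 and 2. The targeted gene Mettl14 measured 5.89 and 3.79 FPKM in cKO libraries 1 and 2, against 7.00 and 6.40 FPKM in control libraries 1 and 2, a log2 difference of -0.42 ± 0.26 (SE). The groups did not overlap, but the test was not passed (limma, adjusted p = 0.959), and reads from outside the deleted part, which the labels do not give, would still be counted.

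The members fell into 2 patterns. Lama3, Col7a1, Itgb1 and Itga2 lay lower in both cKO libraries than in both control libraries. The groups of Lamb3, Lama5, Lamb1, Lamc1 and Itga3 overlapped, and in cKO these 5 were 1.94 to 2.33 times higher in library 2 than in library 1. Library 2 exceeded library 1 in both genotypes for 8 members, all but Itgb1, against 46.6% of all genes. None of the 9 members passed limma's test over all genes, where 0% of genes passed. At an unadjusted p under 0.05 there were 2 members, Lama3 and Itgb1, against 4.96% of all genes (686 genes). Both were lower in cKO, as were 1.68% of all genes at that p. With median-ratio scaling, or with only the most abundant transcript of each gene, 0 members had an unadjusted limma p under 0.05. In a fit with the replicate number as an added term, which the labels do not call a pairing, Lama3 (limma, adjusted p = 0.0383) and Itgb1 (limma, adjusted p = 0.0376) passed, as did 6.51% of all genes, and 1.98% in the lower direction. The 4 members whose groups did not overlap, all lower in cKO, stand beside 16.6% of all genes with both cKO libraries below both control libraries.

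Over the members the median log2 difference was -0.32, with -0.50 within replicate number 1 and -0.14 within number 2. Over all genes tested the corresponding medians were -0.03, -0.03 and -0.02. Within number 1 all 9 members lay lower in cKO, against 53.2% of all genes. Within number 2 there were 7 lower, against 52.4% of all genes, and 2 higher, Lamb1 and Itga3. In the fit without cKO replicate 1 the members' median turned to 0.19, and without cKO replicate 2 it was -0.63. The fit without cKO replicate 1 sets cKO library 2 against both control libraries, whereas against control library 2 alone the median was -0.14. The members share libraries and are not replicates of the condition, so none of these medians was tested.

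**Figure D1:**
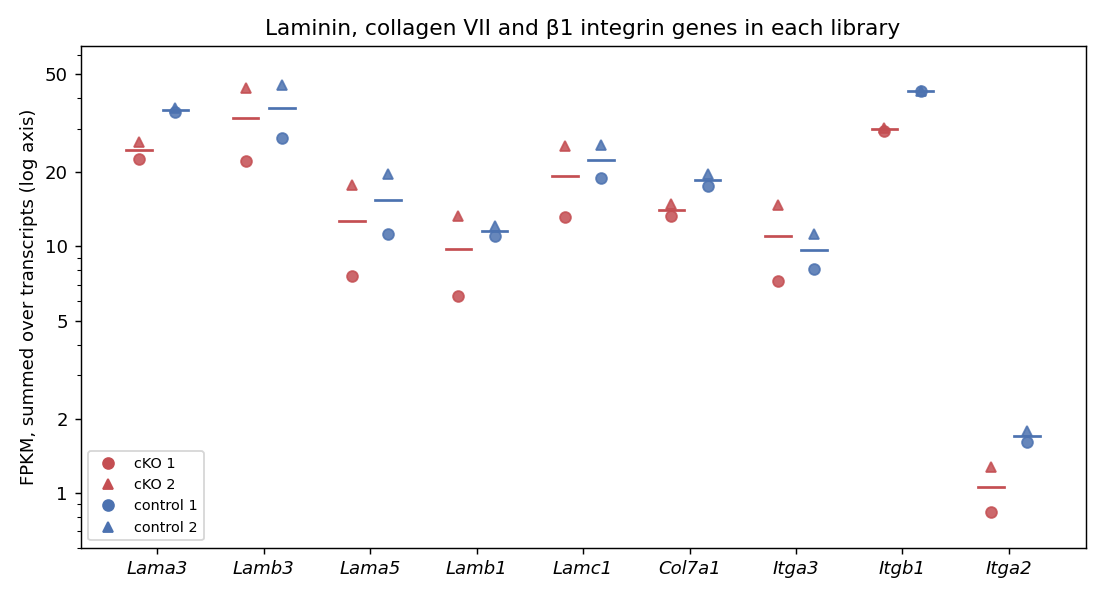
FPKM of each of the 9 members in the 4 libraries, on a log axis, with cKO (red) left of control (blue), circles for libraries numbered 1, triangles for those numbered 2 and a bar at each group's mean. The groups are apart for Lama3, Col7a1, Itgb1 and Itga2, while for Lamb3, Lama5 and Lamc1 the triangles lie above the circles in both genotypes.

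Among the laminin chains of the members, only Lama3 had groups that did not overlap. Lama2 and Lama4, which are not members, also lay lower in both cKO libraries. Lama3 (ENSMUSG00000024421, GRCm38 chromosome 18, 12333819 to 12583013) encodes the α3 chain, whose globular end binds integrins. It measured 22.7 and 26.6 FPKM in cKO libraries 1 and 2, against 35.1 and 36.3 FPKM in control libraries 1 and 2. The cKO libraries thus lay at 64.7% of control within number 1 and at 73.3% within number 2, and the groups did not overlap. The log2 difference was -0.52 ± 0.20 (SE, limma, unadjusted p = 0.044, adjusted p = 0.959), and it stayed between -0.63 and -0.41 when each library was left out. At least 2299 recovered reads stood behind each of these values.

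Both transcripts of Lama3 showed the lower values. They end at the same base and the division of reads between them is an estimate, so these are not separate observations. Lama3-202, with 38 exons, encodes the short α3A form found in the main laminin of skin and took 88.5% to 92.2% of the gene's FPKM. It measured 20.6 and 24.3 FPKM in cKO and 32.3 and 32.2 FPKM in control. Lama3-201, with 75 exons, starts at an upstream promoter, encodes the long α3B form, and measured 2.05 and 2.35 FPKM in cKO and 2.74 and 4.17 FPKM in control. The transcripts' log2 differences were -0.51 ± 0.23 and -0.46 ± 0.34, and neither passed limma's test over 27201 transcripts (adjusted p = 1.0 for each). At the level of transcripts 0% passed, no member transcript had an unadjusted p under 0.05 (4.19% of all transcripts did), and 5 of the 10 tested transcripts of the members lay lower in both cKO libraries than in both control libraries, beside 16.2% of all transcripts tested.

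Lamb3 (ENSMUSG00000026639, chromosome 1, 193207699 to 193343878) encodes the β3 chain, which assembles with α3. It measured 22.1 and 44.0 FPKM in cKO and 27.4 and 45.3 FPKM in control, and all but traces came from the transcript Lamb3-201. Library 2 was higher than library 1 by 1.99 times in cKO and by 1.65 times in control, so the difference between numbers exceeded that between genotypes. The log2 difference of Lamb3 was -0.17 ± 0.40 (adjusted p = 0.972), and it turned to 0.31 without cKO replicate 1 and to 0.18 without control replicate 2. It was -0.65 without cKO replicate 2 and -0.52 without control replicate 1.

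The balance of the α3 and β3 chains could be read within each library. The ratio of Lama3 to Lamb3 was 1.03 and 0.605 in cKO and 1.28 and 0.802 in control, lower in cKO within both numbers but with overlapping groups. With 2 libraries a group the smallest two-sided p that an exact permutation test can give is 0.333, so ratios within libraries were not tested.

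Lama5, Lamb1 and Lamc1 encode the α5, β1 and γ1 chains of the laminin shared by many epithelia. Lama5 (ENSMUSG00000015647, chromosome 2, 180176373 to 180225859) measured 7.60 and 17.7 FPKM in cKO and 11.2 and 19.7 FPKM in control. Lamb1 (ENSMUSG00000002900, chromosome 12, 31265234 to 31329644) measured 6.30 and 13.3 FPKM in cKO and 11.0 and 12.1 FPKM in control. Lamc1 (ENSMUSG00000026478, chromosome 1, 153218922 to 153332786) measured 13.1 and 25.4 FPKM in cKO and 19.0 and 25.8 FPKM in control. For all 3 chains cKO library 1 was the lowest of the 4, at 67.9%, 57.4% and 69.2% of control 1 in that order, while cKO library 2 lay at 90.1%, 110% and 98.5% of control 2. None passed the test (adjusted p = 0.959 for each), with log2 differences of -0.32 ± 0.44 for Lama5, -0.29 ± 0.35 for Lamb1 and -0.26 ± 0.35 for Lamc1. Without cKO replicate 1 they turned to 0.24, 0.19 and 0.19, and Lama5 also turned, to 0.06, without control replicate 2. Lamc1 moved to -0.05 without control replicate 2. Without cKO replicate 2 the differences were -0.88, -0.78 and -0.71, and without control replicate 1 those of Lama5 and Lamc1 were -0.70 and -0.47. The direction in the fit therefore depended on which library was left out. Within number 2 alone the differences were -0.14 for Lama5, 0.13 for Lamb1 and -0.02 for Lamc1.

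Lamb1 had a further coding transcript, Lamb1-205, with 0.52 and 1.61 FPKM in cKO and 0.75 and 0.92 FPKM in control, from 6.84% to 12.1% of the gene. Lamc1 carried 2 annotated retained-intron transcripts, which summed to 0.10 and 0.14 FPKM in cKO and 0.83 and 0.63 FPKM in control. These rest on 1.6 and 2.4 recovered reads in cKO and 11.3 and 10.7 in control, too few to be tested. Over all 16 retained-intron transcripts of the members the share of their summed FPKM was 2.06% and 0.467% in cKO and 1.39% and 1.19% in control, and the groups overlapped.

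Col7a1 (ENSMUSG00000025650, chromosome 9, 108953586 to 108984875) encodes the chain of collagen VII, and its main transcript Col7a1-202 has 119 exons, the most of the members. It measured 13.2 and 14.9 FPKM in cKO and 17.5 and 19.6 FPKM in control. The groups did not overlap, and cKO lay at 75.5% of control within number 1 and at 75.8% within number 2, the most even pair among the members. The log2 difference was -0.38 ± 0.20 (unadjusted p = 0.111, adjusted p = 0.959), between -0.46 and -0.30 when each library was left out. Its main transcript took 87.4% and 97.0% of the gene in cKO and 94.2% and 96.0% in control. The low share in cKO library 1 came with 1.24 FPKM of the 525-nucleotide retained-intron transcript Col7a1-208, which rests on 11.0 recovered reads and was listed at 0 in the other libraries.

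**Figure D2:**
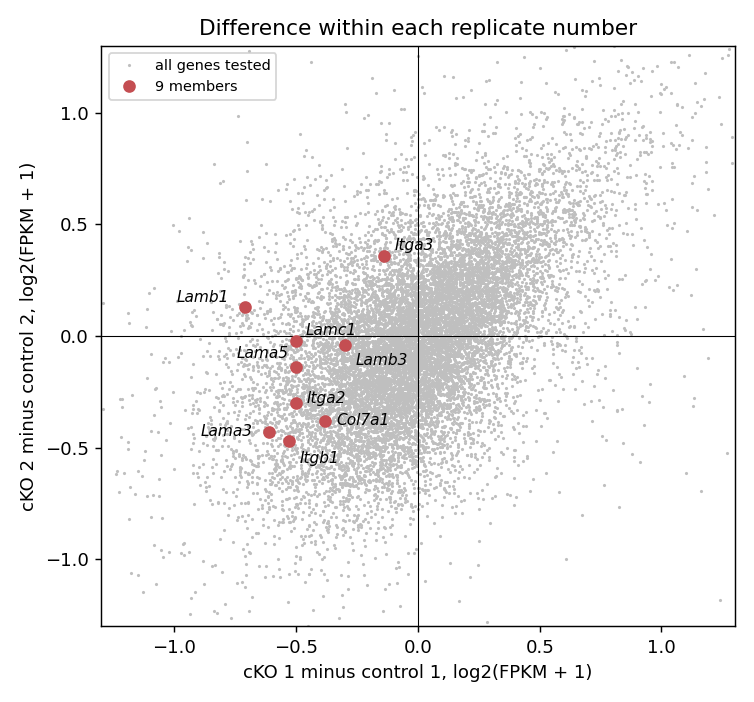
Difference between cKO and control on the log2(FPKM + 1) scale within replicate number 1 (horizontal axis) and within number 2 (vertical axis), for the 9 members (red) and all genes tested (grey). Both axes end at 1.3 in each direction, which leaves 118 genes outside, and Lama3, Itgb1, Col7a1 and Itga2 lie low on both axes while Lamb1 and Itga3 lie above 0 within number 2.

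Itgb1 (ENSMUSG00000025809, chromosome 8, 128685654 to 128733200) encodes the β1 chain, the common partner of the α2 and α3 chains in basal keratinocytes, and had the highest mean of the members in control. It measured 29.3 and 30.3 FPKM in cKO, against 42.7 and 42.5 FPKM in control. The libraries of a group were nearly equal, the groups did not overlap, and cKO lay at 68.7% of control within number 1 and at 71.3% within number 2. The log2 difference was -0.50 ± 0.19 (unadjusted p = 0.0429, adjusted p = 0.959) and stayed between -0.52 and -0.48 when each library was left out, the narrowest such range among the members. Its main transcript Itgb1-201 held 98.5% to 100% of the gene in each library and had a log2 difference of -0.49 ± 0.23. The difference of Itgb1 had the size of that of Lama3, which was also its nearest neighbour among the members, at a Euclidean distance of 0.131 between their centred log2 values over the 4 libraries.

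Itga2 (ENSMUSG00000015533, chromosome 13, 114833081 to 114932100) encodes the α2 chain of the collagen-binding integrin and was the least abundant member. It measured 0.84 and 1.27 FPKM in cKO and 1.61 and 1.79 FPKM in control, all from 1 listed transcript. These values rest on 101 and 232 recovered reads in cKO, with 95% exact Poisson intervals of 82.3 to 122.7 and 203.1 to 263.9, and on 199 and 298 reads in control. The groups did not overlap, and cKO lay at 52.2% of control within number 1 and at 70.9% within number 2. The log2 difference was -0.40 ± 0.26 (adjusted p = 0.959) with a pseudocount of 1, -0.66 with a pseudocount of 0.1 and -0.69 with limma-voom on recovered reads. Without cKO replicate 1 it was -0.25.

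Itga3 (ENSMUSG00000001507, chromosome 11, 95044474 to 95076801) encodes the α3 chain of the laminin-binding integrin and was the only member with a higher mean in cKO. It measured 7.24 and 14.7 FPKM in cKO and 8.10 and 11.2 FPKM in control, lower within number 1 and higher within number 2. The log2 difference was 0.11 ± 0.36 (adjusted p = 0.981), and it turned to -0.36 without cKO replicate 2 and to -0.11 without control replicate 1. Without cKO replicate 1 it was 0.57 and without control replicate 2 it was 0.32. The sign also depended on how transcripts were added, since the main transcript Itga3-201 alone had -0.03 ± 0.43 (5.65 and 13.7 FPKM in cKO, 7.55 and 11.0 FPKM in control).

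In cKO the remainder of Itga3 came mostly from Itga3-202, a coding transcript that starts downstream of the main one. Another coding transcript, Itga3-203, was listed at 0 in both cKO libraries and had 0.20 and 0.16 FPKM in control. Itga3-202 measured 1.21 and 0.88 FPKM in cKO, against 0.23 FPKM in control library 1, and it was listed at 0 in control library 2. This corresponds to 94.7 and 104.8 recovered reads in cKO and 18.5 in control library 1, or 16.7% and 5.98% of the gene in cKO and 2.84% and 0% in control. Both cKO libraries lay above both control libraries, but the transcript did not reach the level required for the test, and the division of reads between transcripts that share 2953 coding bases is an estimate. The coding sequences differ only at their start, shown here because these bases tell the transcripts apart; capitals mark the bases of that transcript's own start, and the shared part begins with the bases in lower case (GENCODE M21, GRCm38, minus strand).
Itga3-201: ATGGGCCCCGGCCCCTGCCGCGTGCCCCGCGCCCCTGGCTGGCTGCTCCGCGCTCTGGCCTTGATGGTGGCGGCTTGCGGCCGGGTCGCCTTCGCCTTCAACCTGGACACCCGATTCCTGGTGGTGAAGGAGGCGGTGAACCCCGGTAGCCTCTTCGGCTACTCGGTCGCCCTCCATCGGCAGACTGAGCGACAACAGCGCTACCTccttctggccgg
Itga3-202: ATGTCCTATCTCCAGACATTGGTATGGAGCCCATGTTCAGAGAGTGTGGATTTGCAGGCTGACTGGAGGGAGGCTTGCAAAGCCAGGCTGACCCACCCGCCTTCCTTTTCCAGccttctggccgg

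Each transcript has its own promoter in RefSeq's table for GRCm38.p6, and the 250 bases before each start are given for these and for the members whose groups did not overlap and for which the table holds an entry. Capitals mark GGGCGG, the core of a GC box, or CCGCCC where the box lies on the other strand. RefSeq's table held 9 promoters for 7 of the 9 members.
Itga3 upstream start, chr11:95076715-95076964, minus strand: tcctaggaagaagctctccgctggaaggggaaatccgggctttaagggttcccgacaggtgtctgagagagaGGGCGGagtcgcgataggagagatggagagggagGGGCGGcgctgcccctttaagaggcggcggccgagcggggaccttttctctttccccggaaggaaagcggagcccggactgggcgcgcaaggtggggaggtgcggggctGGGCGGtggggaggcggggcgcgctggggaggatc
Itga3 downstream start, chr11:95069199-95069448, minus strand: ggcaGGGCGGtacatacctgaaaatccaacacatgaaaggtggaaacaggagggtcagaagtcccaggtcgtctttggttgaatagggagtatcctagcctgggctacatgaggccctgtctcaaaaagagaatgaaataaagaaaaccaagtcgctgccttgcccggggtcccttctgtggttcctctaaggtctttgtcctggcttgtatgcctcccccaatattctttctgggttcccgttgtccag
Itgb1, chr8:128685404-128685653, plus strand: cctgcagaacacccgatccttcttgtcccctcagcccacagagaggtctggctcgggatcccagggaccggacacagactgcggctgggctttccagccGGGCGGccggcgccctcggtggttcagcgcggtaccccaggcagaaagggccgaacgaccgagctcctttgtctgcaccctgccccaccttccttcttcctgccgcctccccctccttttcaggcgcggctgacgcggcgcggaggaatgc
Col7a1, chr9:108953336-108953585, plus strand: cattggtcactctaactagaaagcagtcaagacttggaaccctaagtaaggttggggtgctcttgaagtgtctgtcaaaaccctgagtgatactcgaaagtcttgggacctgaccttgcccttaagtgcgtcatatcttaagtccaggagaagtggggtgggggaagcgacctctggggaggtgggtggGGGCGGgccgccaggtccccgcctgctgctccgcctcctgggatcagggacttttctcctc
Itga2, chr13:114932101-114932350, minus strand: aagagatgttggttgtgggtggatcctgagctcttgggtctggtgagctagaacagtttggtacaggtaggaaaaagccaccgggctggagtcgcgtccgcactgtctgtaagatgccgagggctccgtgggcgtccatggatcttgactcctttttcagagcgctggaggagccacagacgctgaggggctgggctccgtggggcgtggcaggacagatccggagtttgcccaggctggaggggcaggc

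The upstream start of Itga3 had 3 matches to GGGCGG and 22 CpG dinucleotides in these 250 bases, the downstream start 1 match and 5 CpG dinucleotides. Itgb1 had 1 match and 21 CpG, Col7a1 1 match and 7 CpG, and Itga2 no match and 12 CpG, against a median of 6 CpG over all promoters and 32.7% of 32851 promoters with at least 1 match. The AP-1 site TGAGTCA was searched on both strands and found in none of the 9 promoters of the members, against 4.46% of all promoters. The TATA box, with the letters TATAAA, was likewise found in none of the 9, against 12.4% of all promoters. Of the other members in the table, Lama5 had 4 matches to GGGCGG, Lamb1 had 2 and neither promoter of Lamb3 had any.

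**Figure D3:**
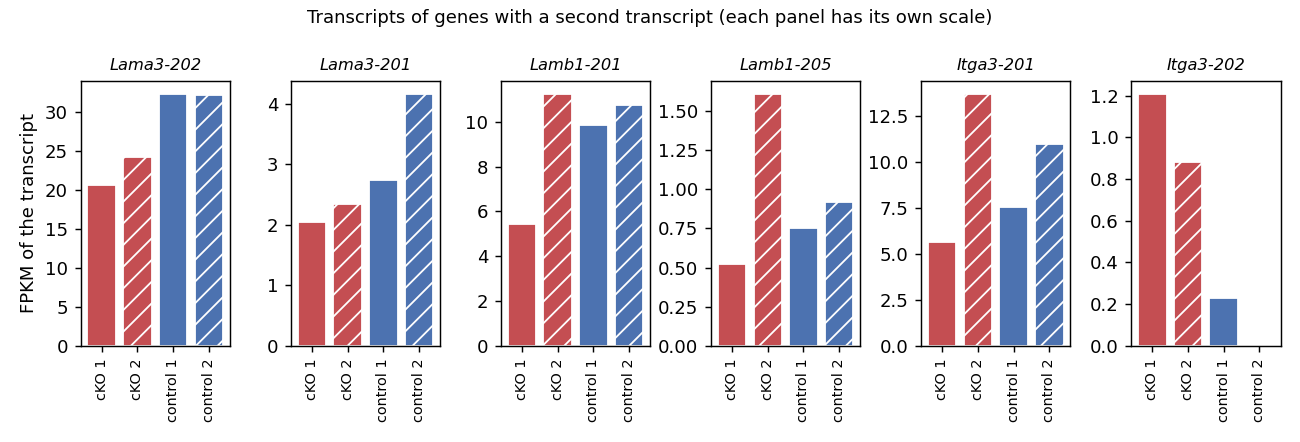
FPKM of the transcripts of Lama3, Lamb1 and Itga3 that took at least 10% of their gene in some library, one panel each with its own scale starting at 0, with cKO (red) left of control (blue) and hatching for libraries numbered 2. Both Lama3 transcripts are lower in both cKO libraries, and Itga3-202 is at 1.21 and 0.88 FPKM in cKO, against 0.23 and 0 in control.

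The members are long mRNAs with many exons, a feature that the choice by symbol did not use. Their main transcripts had 16 to 119 exons (median 30) and 3815 to 11388 nucleotides (median 5784), against medians of 9 exons and 2821 nucleotides over the 11705 protein-coding genes tested. The 2545 protein-coding genes with at least 16 exons had a median log2 difference of -0.12, between that of all genes and that of the members. Their median was -0.09 within replicate number 1 and -0.13 within number 2, against -0.50 and -0.14 for the members. Their median of library 2 minus library 1 was -0.06 in cKO and -0.03 in control, against 0.9 and 0.15 for the members. Of the genes with at least 16 exons, 23.5% had both cKO libraries below both control libraries. That group of genes was chosen after the values were seen, and the part of exon number in the members' values was not tested.

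The m6A complex most often methylates the central base of the pattern GGACU, written GGACT in cDNA, though other contexts serve too. This pattern occurred between 2 times in Itgb1 and 27 times in Col7a1 in the main transcripts, and 90.7% of main transcripts of protein-coding genes held at least 1. Per kilobase Itgb1 was lowest, at 0.52 (percentile 19.8 of the 11705 protein-coding genes tested), and Col7a1 highest, at 2.92 (percentile 97.3), with a median of 1.06 over these genes. Itgb1 held none in its coding sequence. Itgb1 and Col7a1 both lay lower in cKO, without passing limma's test over all genes, and whether density goes with level was not tested. Methylation was not measured in these libraries. The coding match nearest the stop codon is shown for 4 members in which it lay within 400 bases of it (that of Lama3 was not placed), with the pattern in capitals and 18 bases on either side, since sites near the stop codon are those known to be methylated most.
Lamc1-201: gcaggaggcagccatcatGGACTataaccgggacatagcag
Col7a1-202: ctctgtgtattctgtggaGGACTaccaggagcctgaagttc
Itga3-201: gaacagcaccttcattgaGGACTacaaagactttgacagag
Itga2-201: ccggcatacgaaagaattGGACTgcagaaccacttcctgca
The A of these patterns lay 106 bases before the end of the coding sequence in Lamc1, 271 in Col7a1, 331 in Itga3 and 397 in Itga2.

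The order of the members' levels was nearly the same in both genotypes. In cKO the means ran from Lamb3 (33.1 ± 15.5 FPKM, SD, n = 2) through Itgb1 (29.8 ± 0.714) and Lama3 (24.6 ± 2.79) to Itga2 (1.05 ± 0.304). In control they ran from Itgb1 (42.6 ± 0.106) through Lamb3 (36.4 ± 12.6) and Lama3 (35.7 ± 0.877) to Itga2 (1.70 ± 0.127). Lamc1, Col7a1 and Lama5 followed in that order in both groups, with Itga3 above Lamb1 in cKO and below it in control. The place of Lamb3 depended on the library, with ratios of Lama3 to Lamb3 of 1.03 and 0.605 in cKO and 1.28 and 0.802 in control. Lama5 lay above Lamb1 in every library, with ratios of 1.21 and 1.33 in cKO and 1.02 and 1.63 in control. Itga3 lay above Lamb1 in both cKO libraries and below it in both control libraries, which was not tested. Itga2 lay below all other members in every library.

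The defining markers of the cell types present help to read these levels. Basal keratinocyte markers were high in all libraries, at 2343 and 3657 FPKM in cKO and 3688 and 4729 FPKM in control summed over Krt5, Krt14, Krt15 and Trp63. The 4 markers lay lower in cKO within both numbers (median log2 difference -0.55), as did 37.6% of all genes, and 0 of 4 passed the test. The groups of Krt5 and Krt14 overlapped. Krt15 and Trp63 lay lower in both cKO libraries than in both control libraries, beside 16.6% of all genes. Trp63, the transcription factor that defines basal cells, measured 76.3 and 76.8 FPKM in cKO and 99.6 and 109 FPKM in control. Krt10, a keratin of the layers above, measured 12142 and 6217 FPKM in cKO and 15342 and 5382 FPKM in control, so it was lower in the libraries numbered 2, where Krt5, Krt14 and most members were higher. The 5 markers of the upper layers summed to 13063 and 6737 FPKM in cKO and 16045 and 5896 FPKM in control, mostly from Krt10. Krt1 was listed at 0 in every library, and whether it was absent or missed in the deposited values was not tested. In bulk RNA, fewer cells of a type and less RNA per cell cannot be told apart.

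The 4 members with separate groups were also set against the basal markers in the same library. The ratio of Itgb1 to Trp63 was 38.4% and 39.5% in cKO and 42.8% and 39.0% in control. Lama3 was at 29.7% and 34.7% of Trp63 in cKO and at 35.2% and 33.3% in control, and Col7a1 at 17.3% and 19.4% in cKO and at 17.6% and 18% in control. In each of these ratios the groups overlapped. These members were chosen because their own groups did not overlap. Trp63 itself lay lower in both cKO libraries, so dividing by it moves such members toward overlap whatever the cause. The share of all genes that overlap relative to Trp63 was not computed. Over Lama3, Col7a1, Itgb1 and Itga2 and the 4 basal markers, 14 of 16 ratios overlapped, 1 was lower in both cKO libraries and 1 was higher. This count has no share of all genes beside it, and the part of basal cells in the members' values was not tested. The lower one was Itga2 to Krt14, with 0.0585% and 0.0579% in cKO and 0.074% and 0.0702% in control, and 2.19% of all genes were lower in both cKO libraries relative to Krt14. The higher one was Col7a1 to Krt15, with 4.0% and 3.56% in cKO and 3.4% and 2.66% in control. Itga3 lay higher in both cKO libraries relative to Krt5, Krt14 and Krt15, at 0.505% and 0.67% of Krt14 in cKO and 0.372% and 0.441% in control, and overlapped relative to Trp63. Relative to Krt5 alone, 5 members lay higher in both cKO libraries, Lamb3, Lama5, Lamb1, Lamc1 and Itga3. The share of all genes that lay higher in both cKO libraries was 45.3% relative to Krt5, 44.1% relative to Krt14 and 63.3% relative to Krt15, and Krt5 itself measured 500 and 968 FPKM in cKO and 897 and 1332 FPKM in control, so these counts say nothing particular to the members. These ratios were chosen after the values were seen, and they do not tell which of the pair differs.

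**Figure D4:**
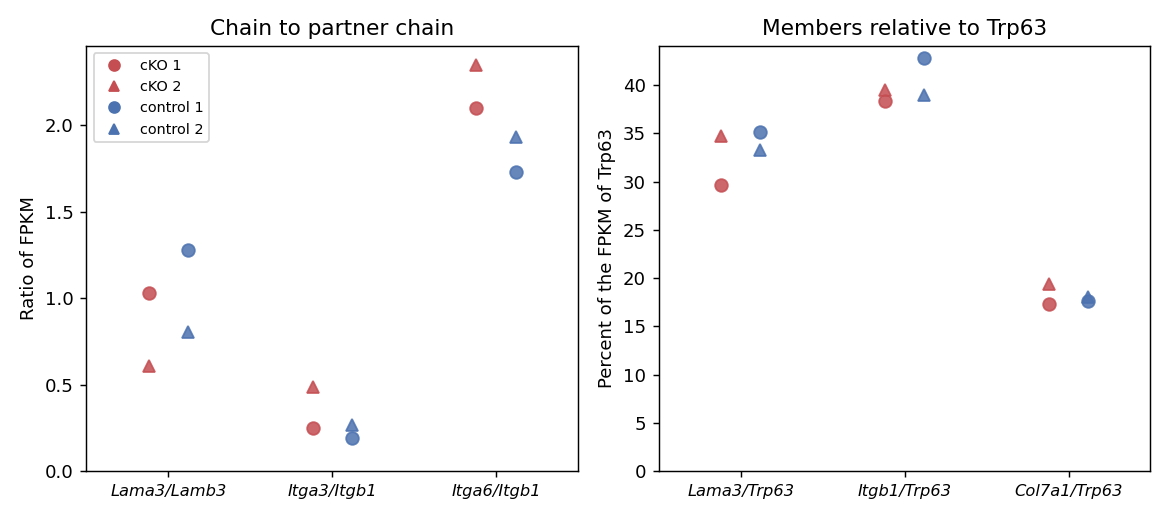
Ratios within each library, with Lama3 to Lamb3, Itga3 to Itgb1 and Itga6 to Itgb1 on the left (ratio of FPKM) and Lama3, Itgb1 and Col7a1 as a percentage of the FPKM of Trp63 on the right; cKO (red) is left of control (blue), circles are libraries numbered 1 and triangles those numbered 2. Lama3 to Lamb3 is lower in cKO within each number, and on the right the groups overlap. Itga6 to Itgb1 is higher in both cKO libraries, where Itgb1 itself is lower.

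Other cells of skin also make Lamb1, Lamc1, Itgb1 and Itga2. Dermal fibroblast markers summed to 260 and 283 FPKM in cKO and 400 and 395 FPKM in control over 7 genes, mostly from Vim and Dcn. Their median log2 difference was -0.18, and 1 of 7 had an unadjusted p under 0.05 in limma, beside 4.96% of all genes. This was Dcn, at 34.0 and 40.3 FPKM in cKO and 55.7 and 68.2 FPKM in control. The fibroblast collagen gene Col1a1 was at 4.27 and 5.94 FPKM in cKO and 4.06 and 5.70 FPKM in control. Leukocyte markers summed to 25.1 and 23 FPKM in cKO and 43.8 and 37.1 FPKM in control over 4 genes. Of these, 3 lay lower in both cKO libraries, beside 16.6% of all genes. Melanocyte markers summed to 360 and 389 FPKM in cKO and 465 and 407 FPKM in control. Endothelial markers summed to 0.90 and 1.82 FPKM in cKO and 1.24 and 0.79 FPKM in control, and adipocyte markers to 0.09 and 0 FPKM in cKO and 0.09 and 0.05 FPKM in control, with Lep at 0 in every library. Schwann cell markers summed to 17.2 and 17.2 FPKM in cKO and 20.1 and 21.3 FPKM in control, and pericyte and smooth muscle markers to 0.85 and 1.43 FPKM in cKO and 3.12 and 1.79 FPKM in control. The part of these cells in the members' values was not tested.

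The other laminin chains were compared as a list of 5, of which 4 were tested and 0 passed. Their median log2 difference was -0.15, and 2 lay lower in both cKO libraries than in both control libraries, beside 16.6% of all genes. Lama4, the α4 chain of vessels and mesenchyme, measured 1.90 and 1.37 FPKM in cKO and 3.09 and 2.66 FPKM in control. Lama2, the α2 chain best known from muscle, measured 4.95 and 4.10 FPKM in cKO and 5.95 and 5.41 FPKM in control. Lamb2, an alternative to the β1 chain, stayed close between groups, at 21.6 and 25.3 FPKM in cKO and 22.2 and 22.99 FPKM in control, so that Lamb1 to Lamb2 was 0.292 and 0.526 in cKO and 0.495 and 0.524 in control.

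The other α integrins numbered 10, of which 6 were tested and 0 passed, with a median log2 difference of -0.17. There were 2 lower in both cKO libraries, beside 16.6% of all genes. The most abundant were Itga6, which pairs with β4 in hemidesmosomes and also with β1, and Itgav. Itga6 measured 61.5 and 71.4 FPKM in cKO and 73.6 and 81.9 FPKM in control, and Itgav 14.5 and 13.7 FPKM in cKO and 14.3 and 14.4 FPKM in control. Itga1, a collagen-binding partner of β1, measured 0.63 and 0.81 FPKM in cKO and 1.37 and 1.39 FPKM in control. Itga6 to Itgb1 was 2.10 and 2.35 in cKO and 1.73 and 1.93 in control, so this ratio lay higher in both cKO libraries. Itgb1 itself lay lower in both cKO libraries, and the share of all genes higher relative to it was not computed. Itga3 to Itgb1 was 0.247 and 0.485 in cKO and 0.190 and 0.264 in control, with overlapping groups. Itga2 to Itgb1 was 0.0287 and 0.0419 in cKO and 0.0377 and 0.0421 in control.

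Proteins that link integrins to actin formed a list of 22, of which 21 were tested and 0 passed, with a median log2 difference of -0.23. There were 6 lower in both cKO libraries and 2 higher, beside 16.6% and 16.2% of all genes. Lims1 (PINCH), which joins integrin-linked kinase to its partners, measured 14.5 and 11.2 FPKM in cKO and 20.4 and 17.8 FPKM in control. Bcar1, the focal adhesion adaptor p130Cas, was higher, at 8.47 and 11.7 FPKM in cKO and 4.41 and 7.71 FPKM in control. Actn4 and Vcl, which encode α-actinin-4 and vinculin, were the most abundant, with Actn4 at 88.9 and 111 FPKM in cKO and 109 and 102 FPKM in control, and Vcl at 31.4 and 23 FPKM in cKO and 36.3 and 27.0 FPKM in control.

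Tetraspanins and other laminin-binding proteins, 11 tested and 0 passed, had a median log2 difference of 0.18. There were 4 higher and 1 lower in both cKO libraries, beside 16.2% and 16.6% of all genes. Sdc1, a cell-surface proteoglycan of keratinocytes, measured 246 and 261 FPKM in cKO and 181 and 162 FPKM in control. Dag1, the laminin receptor dystroglycan, measured 56.8 and 81.6 FPKM in cKO and 44.6 and 57.3 FPKM in control. Rpsa, a ribosomal protein also called laminin receptor, was at 675 and 1085 FPKM in cKO and 615 and 885 FPKM in control, and the tetraspanin Cd9 at 281 and 274 FPKM in cKO and 329 and 289 FPKM in control.

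Genes for the processing and folding of laminin and collagen VII, 11 tested and 0 passed, had a median of -0.05. There were 2 lower and 1 higher in both cKO libraries, beside 16.6% and 16.2% of all genes. Tll1, a protease of the BMP1 family that cleaves procollagens, measured 1.36 and 1.14 FPKM in cKO and 2.16 and 1.92 FPKM in control, and Plod1, a lysyl hydroxylase, 3.71 and 7.40 FPKM in cKO and 6.83 and 11.2 FPKM in control. The collagen chaperone Serpinh1 measured 25.8 and 59.6 FPKM in cKO and 36.4 and 45.8 FPKM in control, and P4hb, the β subunit of prolyl 4-hydroxylase, 286 and 249 FPKM in cKO and 312 and 207 FPKM in control.

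The genes whose centred pattern over the 4 libraries was most like the members' mean pattern were Timp3, Pabpc4 and Tbcd, at Euclidean distances of 0.043, 0.0479 and 0.0487 among 7116 genes with a mean of at least 10 FPKM. Timp3, for example, measured 15.2 and 24.2 FPKM in cKO and 21.8 and 26.0 FPKM in control. Among the members the closest pairs were Col7a1 with Itga2 (distance 0.113), Lama3 with Itgb1 (0.131), Lamb3 with Lama5 (0.195) and Lamb1 with Lamc1 (0.22). Each of the 4 members with separate groups thus had another such member as its nearest. Whether all 4 form a single cluster was not tested. The distances use the same values by which the groups were called separate, so some closeness follows from that choice.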

How the data were processed

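RNA sequencing gave 2 cKO and 2 control libraries from epidermal keratinocytes. Total RNA was made into libraries with a NEBNext Ultra kit, per the labels' protocols, which name both poly(A) selection and ribosomal RNA removal and do not say which was used. fastp, HISAT2, HTSeq and the build GRCm38 are listed per the submitters' processing notes, with neither role nor version; the step that gave a value per transcript is not given in the sources used here, nor whether strand was kept. The deposited values are per transcript in an unnamed unit and were taken as FPKM (FPKM and RPKM cannot be told apart), since value times GENCODE M21 transcript length in kilobases summed to 1015550, 1021998, 1016302 and 1019474 in cKO 1, cKO 2, control 1 and control 2. Columns named WT hold the control libraries and were matched by replicate number. GENCODE M21 (GRCm38) held 98.04% of the transcripts, and 162 symbols turned into dates were restored by transcript ID.

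FPKM were summed per symbol. The test was limma with a trend in the prior variance, on log2(FPKM + 1) with genotype as its only term (2 residual degrees of freedom) and Benjamini-Hochberg adjustment at 0.05, for genes, and separately for transcripts, with at least 1 FPKM in at least 2 libraries. Reads were recovered as value times length times implied depth, taken from low values that are whole multiples of 1 read (within 0.2 of a read in 94.5% to 95.4% of cases). The intervals given cover counting error only. Genes named besides the members were, from each list, the 2 with the highest mean and the 2 with the smallest p; ratios and markers are exceptions. One other gene of the laminin list is not reported here and was left out of that list. The members and lists were chosen with earlier results of these data known. Alternatives were another pseudocount, other filters, median-ratio and column-sum scaling, limma-voom on recovered reads, the most abundant transcript, the replicate number as a block, and leaving out each library, which leaves 1 library in a group that is assumed to vary like the other group. Fits used limma 3.58.1 in R 4.3.3, figures matplotlib 3.10.9, and tables pandas 2.3.3 with numpy 2.4.6 under Python 3.11.15.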

Additional observations from a re-analysis of the deposited data

How the results depend on the processing

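The direction of Lama3, Col7a1, Itgb1 and Itga2 was the same under every alternative run, with log2 differences, leaving aside fits without a library, of -0.58 to -0.48 for Lama3, -0.45 to -0.34 for Col7a1, -0.56 to -0.46 for Itgb1 and -0.69 to -0.38 for Itga2. With the replicate block, Lama3 (-0.52, adjusted p = 0.0383) and Itgb1 (-0.50, adjusted p = 0.0376) passed, as did 900 genes (626 higher and 274 lower in cKO, 6.51% of those tested) but 0 transcripts. The labels do not say that the numbers pair the libraries; deviations from the group means of same-numbered libraries correlated across 13817 genes at r = 0.722, a hint from the data and not from the design. Without the block, and with all libraries, 0 genes passed in each alternative, with 626 to 1173 genes at an unadjusted p under 0.05. Of the members, 2 had such a p in the main fit, but 0 did with median-ratio scaling and 0 with the most abundant transcript. For transcripts only the other pseudocount, no filter and equal column sums were run, and 0 passed, with 1036 to 2602 at an unadjusted p under 0.05. Without a library 9 to 71 genes passed (71 without cKO replicate 1, 9 without cKO replicate 2, 14 without control replicate 1 and 37 without control replicate 2), as did 20 to 87 transcripts (57, 20, 67 and 87 in that order), and the members' median lay between -0.63 and 0.19. Ranges without a library were -0.65 to 0.31 for Lamb3, -0.88 to 0.24 for Lama5, -0.78 to 0.19 for Lamb1, -0.71 to 0.19 for Lamc1 and -0.36 to 0.57 for Itga3, so each changed direction; Itga3 also turned to -0.0327 with the most abundant transcript, which leaves out Itga3-202. Scaling by equal column sums moved the median of all genes from -0.03 to -0.08. Itga2 dropped out under a filter of 1 FPKM in all libraries.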
